A study of Rattus norvegicus with 12 samples.

Results

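Rbm3 (ENSRNOG00000005387), the gene of RNA binding motif protein 3, was followed across RNA sequencing libraries of rat H9c2 cells. The gene was found by its symbol, 1 row of 30562 in the table, and it was among the 12263 genes abundant enough to be tested. The rule named 2 genes: Rbm3, chosen by its measured level, which was higher with methylmalonic acid (MMA) than in control cells, and its closest relative Cirbp, which was not analysed here. H9c2 is a cell line from embryonic rat heart, labelled as cardiomyocytes. The 12 libraries fell into 4 groups of 3: cells given MMA, cells given folic acid (FA), cells given both (MMA+FA, written MMA_FA in the labels), and control cells (Ctrl). MMA, an organic acid, accumulates in people short of vitamin B12, and FA is the form of folate used in supplements. The labels state no doses, exposure times or culture temperature. Nor do they say whether replicates were separate cultures, so p-values measure only the spread between these samples.

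RBM3 is a small RNA-binding protein with a single RNA recognition motif followed by a glycine-rich tail. Together with CIRBP it is known as the main cold-inducible RNA-binding protein of mammalian cells: its level rises when cells are cooled mildly, and it also responds to other stresses. It binds many mRNAs, favours their translation and stability, and in mouse neurons it acts through the reticulon Rtn3 to protect synapses. Cooling acts in part through splicing of the Rbm3 transcript, which the temperature-sensitive CLK kinases and the splicing factor HNRNPH1 have been reported to influence.

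The promoter is shown because it is the regulatory sequence nearest to the transcript whose level differed between the groups. RefSeq places it in the rat assembly GRCr8 on the plus strand of the X chromosome at chrX:17020655-17020954, from 250 bases before the start of transcription to 50 bases after it. That assembly differs from the one used for the expression values, mRatBN7.2, so it was used for sequence and gene order only. Capitals mark the motifs found.

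Rbm3 promoter: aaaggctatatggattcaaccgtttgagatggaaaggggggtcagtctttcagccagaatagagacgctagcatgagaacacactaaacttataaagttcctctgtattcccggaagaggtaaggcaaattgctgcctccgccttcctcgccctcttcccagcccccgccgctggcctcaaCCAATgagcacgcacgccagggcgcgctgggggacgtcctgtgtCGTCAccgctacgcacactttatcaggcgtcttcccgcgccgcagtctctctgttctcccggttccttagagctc

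A CCAAT box (letters CCAAT) lay at bases -69 to -65, counted from the start of transcription, and a short CRE motif (letters TGACG, matched on the minus strand, so that it reads CGTCA here) at -25 to -21. Both strands were searched in the 33469 promoters of the RefSeq table, and the motifs do not overlap in Rbm3. CCAAT was present in 37.5% of all promoters and TGACG in 21.2%. The Sp1 GC box (GGGCGG, in 33.1% of promoters), the E box bound by clock factors (CACGTG, 6.42%) and a pair of heat shock units (GAANNTTC, 8.59%) had no match in this window. The Rbm3 window was 56.3% G and C with 20 CpG dinucleotides, against medians of 51.7% and 7 over all promoters. These matches describe letters only.

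Values are in TPM, a unit which corrects for gene length and sums to the same total in every library, so the depth behind each value is unknown. The median gene differed by -0.07 on the log2(TPM + 1) scale in MMA against control, by -0.05 in FA against control and by -0.12 in MMA+FA against control. Of 8 cardiomyocyte markers 3 reached the filter of a mean of 1 TPM, and Myh6 and Myh7, the cardiac myosin heavy chains, averaged 0.045 and 0.01 TPM. The summed cardiomyocyte markers lay between 38.2 and 40.6 TPM with MMA, 61.6 and 64.3 with FA, 83.9 and 103 with MMA+FA, and 32.1 and 37.9 in control libraries. The 4 skeletal muscle markers summed to between 78.9 and 83.4 TPM with MMA, 77.3 and 93.6 with FA, 57.6 and 68.4 with MMA+FA, and 90.1 and 99.5 in control libraries. Within the first sum, Tnnt2, a cardiac troponin, averaged 21.4 TPM with MMA, 44.5 with FA, 73.6 with MMA+FA and 16.1 in control cells, while Nkx2-5 (11.04 to 12.1) and Gata4 (5.68 to 6.41) had similar means in the 4 groups. Within the second, Myod1 was at 60.0, 55.2 and 31.7 TPM with MMA, FA and MMA+FA and at 72.7 in control cells, and Acta1 at 3.05, 5.85 and 9.25 TPM, against 3.77. Both sums moved with the groups, and their part in the values of Rbm3 was not tested. Fibroblast markers (3 of 4 tested) summed to between 7023 and 7956 TPM with MMA, 7943 and 9293 with FA, 6947 and 8207 with MMA+FA, and 6716 and 7375 in control libraries. Epithelial markers, of which only Krt8 reached the filter among 3, summed to between 24.6 and 26.1 TPM with MMA, 29.9 and 33.0 with FA, 26.8 and 33.9 with MMA+FA, and 19.8 and 22.0 in control libraries, so that, as for Rbm3, all treated libraries lay above control. Epcam and Cdh1 averaged 0.014 and 0.016 TPM, and the part of these sums in the values of Rbm3 was not tested either. None of 3 endothelial markers and none of 2 leukocyte markers with a row reached the filter. In bulk RNA, fewer cells of a type and less RNA per cell cannot be told apart.

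Rbm3 was higher in every library given either acid than in every control library. It stood at 401, 390 and 450 TPM in the MMA libraries (replicates 1 to 3) and at 373, 351 and 342 TPM in the FA libraries. The MMA+FA libraries had 361, 346 and 407 TPM, and the control libraries 236, 257 and 253 TPM. The lowest treated library, FA replicate 3, was therefore above the highest control library, replicate 2. The MMA+FA libraries overlapped both the MMA and the FA libraries. The MMA libraries lay above the FA libraries, a separation whose share over all genes was not counted.

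The means were 414 ± 31.6 TPM with MMA, 355 ± 16.1 with FA, 371 ± 31.5 with MMA+FA and 249 ± 11.04 in control cells (SD, n = 3 each). In order from the lowest, the groups ran control, FA, MMA+FA and MMA. Of the neighbours in that order, control and FA were separated by more than their spread, whereas FA and MMA+FA, and MMA+FA and MMA, were not. The coefficient of variation within a group was 7.64% with MMA, 4.53% with FA, 8.47% with MMA+FA and 4.44% in control cells. Replicate 3 was the highest library of the MMA group and of the MMA+FA group. Over the 12 libraries the highest value was 1.90 times the lowest, and 92.9% of the variance of log2(TPM + 1) lay between the groups, against a median of 58.9% over all genes tested. The choice of Rbm3 for its MMA and control libraries itself raises this share, so it is a description only.

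**Figure D1:**
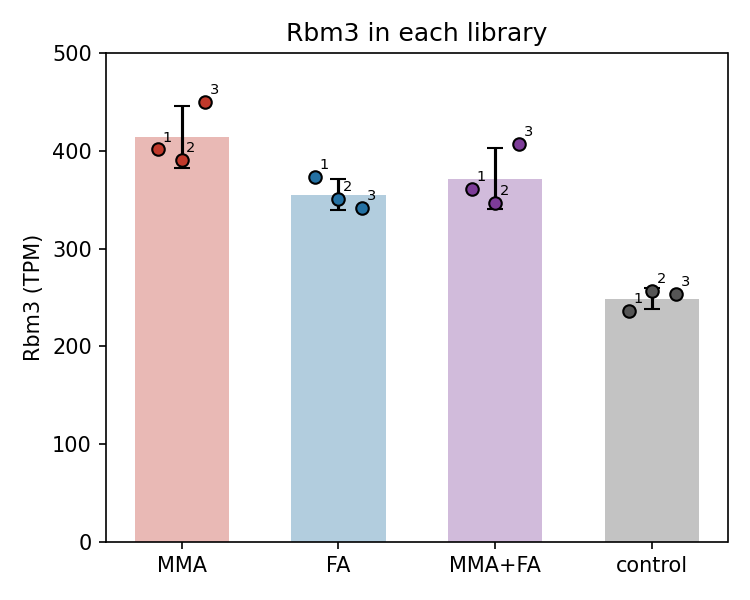
Rbm3 in TPM (vertical axis, from 0) in each library of the MMA, FA, MMA+FA and control groups; points are libraries with their replicate numbers, bars the means and whiskers the SD of 3 libraries. All 9 libraries given an acid lie between 342 and 450 TPM, above the 3 control libraries at 236 to 257 TPM.

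Rbm3 was chosen for its level in MMA against control. That difference and those built on the same libraries are therefore given as descriptions without a test. The exception is the mean effect of FA, which is tested below with its limits stated. In MMA against control the log2 difference was 0.73 (SE 0.07), a ratio of mean TPM of 1.66. In this comparison limma called 3.85% of all genes tested as higher and 16.5% as lower. In FA against control the log2 difference was 0.51 (SE 0.07), a ratio of 1.43, with 3.67% of all genes called higher and 8.7% lower. In MMA+FA against control it was 0.57 (SE 0.07), a ratio of 1.49, with 6.67% called higher and 32.6% lower. These 3 comparisons share their control libraries. Among the 385 genes at least as abundant as Rbm3, itself included, Rbm3 had the largest difference in each of the 3. Among all 12263 genes tested, 48 exceeded Rbm3 in MMA against control, 103 in FA against control and 119 in MMA+FA against control. The choice of Rbm3, which used the same control libraries, itself favours all these ranks.

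Relative to the shift of the median gene, these differences were 0.80, 0.56 and 0.69. The 359 genes whose libraries all lay above control in each of the 3 treated groups made up 2.93% of the genes tested. A narrower pattern, MMA and FA libraries above control without overlap and MMA+FA libraries overlapping both, was shown by 263 genes (2.14%), Rbm3 included.

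Earlier results of these data were known when Rbm3 was chosen. MMA+FA against FA used no library of the contrast behind that choice, although its SE is pooled over all 12 libraries. There Rbm3 averaged 371 ± 31.5 TPM with MMA+FA and 355 ± 16.1 TPM with FA alone (SD, n = 3 each), and the libraries overlapped. The log2 difference of 0.06 (SE 0.07, 95% interval -0.08 to 0.21) did not pass limma's test (adjusted p = 0.569 over all genes tested), where 10.5% of genes were called, 1.6% higher and 8.9% lower. Without MMA+FA replicate 3 the difference was -0.0048 (adjusted p = 0.972).

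With FA added to MMA, Rbm3 averaged 371 ± 31.5 TPM in MMA+FA libraries and 414 ± 31.6 TPM in MMA libraries (SD, n = 3 each), a log2 difference of -0.16 (SE 0.07) given without a test. The mean effect of FA over cells with and without MMA is orthogonal to the contrast that chose Rbm3, although it uses the same MMA and control libraries. Its estimate is independent of that choice only if all groups have an equal spread. Its p is therefore no support from libraries free of the choice. The mean effect of FA was 0.18 (SE 0.05, 95% interval 0.08 to 0.28; adjusted p = 0.0177 in limma), and 24.9% of all genes were called in that contrast. It averages a positive value without MMA (0.51) and a negative one with MMA (-0.16), so it describes neither state by itself. The mean effect of MMA over cells with and without FA, given without a test, was 0.40 (SE 0.05), in a contrast where 30.1% of all genes were called. Over 21 alternative settings the adjusted p of the FA effect lay between 0.00651 and 0.0497, the highest without MMA+FA replicate 3.

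With both acids, Rbm3 stood below the sum of the differences seen with each acid alone. Had the single differences summed on the log2 scale, MMA+FA cells would have been 1.24 above control, at 589 TPM, or at 520 TPM had they summed in TPM. The observed mean was 371 TPM, a log2 difference of 0.57 from control. The interaction of the 2 acids was -0.67 on the log2 scale (SE 0.09), and it was not tested because it contains the contrast that chose the gene. In this contrast limma called 2.41% of all genes, with 1.47% of all genes lower. By size, 12164 of 12263 genes had a higher value than Rbm3 in it, a rank that the choice of the gene itself favours.

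**Figure D2:**
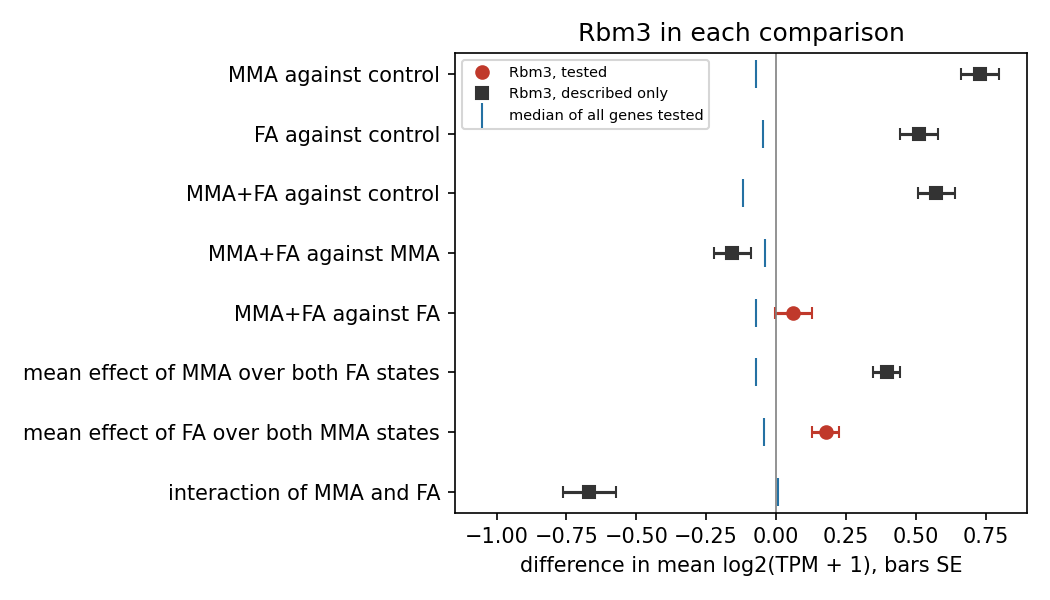
Differences in mean log2(TPM + 1) of Rbm3 (horizontal axis) in 8 comparisons, with limma's SE as whiskers; circles mark the 2 that were tested, squares those given as descriptions, and blue ticks the median of all 12263 genes tested. The values against control lie between 0.51 and 0.73, MMA+FA against FA lies at 0.06, and the interaction at -0.67.

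Mitochondrially encoded transcripts, which take a large share of the total, differed between groups too. They held 10.8 ± 0.598% of TPM with MMA, 9.53 ± 0.845% with FA, 10.6 ± 0.476% with MMA+FA and 9.58 ± 0.270% in control libraries (SD, n = 3 each). With these transcripts left out and TPM rescaled, the log2 differences of Rbm3 from control were 0.75 with MMA, 0.51 with FA and 0.59 with both acids. After median-ratio scaling, by which the typical gene is made equal between libraries, Rbm3 stood at 419 ± 37.7 with MMA, 352 ± 17.2 with FA, 387 ± 27.6 with MMA+FA and 238 ± 10.7 scaled TPM in control cells (SD, n = 3 each), and the treated libraries again all lay above the control libraries.

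Rbm3 was an abundant transcript. Its mean of 347 TPM over the 12 libraries placed it 385th of 12263 genes. By library it ranked from 306th to 338th with MMA, from 358th to 389th with FA, from 323rd to 382nd with MMA+FA and from 543rd to 600th in control cells. Among the 31 tested rows whose symbol starts with Rbm and a digit, it had the highest mean. It made up 27.1 ± 2.01% of the summed TPM of this RBM family with MMA, 24.1 ± 0.874% with FA, 25.5 ± 1.30% with MMA+FA and 17.5 ± 0.594% in control cells (SD, n = 3 each). The rest of the family summed to 1112 ± 28.5 TPM with MMA, 1120 ± 5.95 with FA, 1084 ± 20.2 with MMA+FA and 1169 ± 8.14 in control cells. These sums were not scaled by median ratios. The size factors of that scaling were 1.04 to 1.05 in control libraries and 0.94 to 0.97 with MMA+FA. A lower sum in TPM therefore does not show that the other members fell.

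Other members of the RBM family, a group that shares the RNA recognition motif but serves different steps of RNA metabolism, were called with MMA about as often as genes in general. Of 30 tested members other than Rbm3, 0 rose and 6 fell in MMA against control (median log2 difference -0.07, as for all genes, where 20.4% were called). Under median-ratio scaling 2 rose and 3 fell, and with any 1 library left out between 0 and 1 rose and between 3 and 7 fell. Rbm7, a subunit of the nuclear exosome targeting complex, fell to 35.4 TPM with MMA, against 44.6 TPM in control cells (log2 -0.32, adjusted p = 0.00722), and Rbm19, which acts in ribosome assembly, fell by 0.33 (adjusted p = 0.012). The highest values were those of Rbm43 (0.27, adjusted p = 0.257), Rbm14 (0.19, adjusted p = 0.0699) and Rbm12 (0.16, adjusted p = 0.05002), against 0.73 for Rbm3. Rbm14 and Rbm12 rose in MMA+FA against control (0.27 and 0.22, adjusted p = 0.00957 and 0.0065), and both calls held in all alternatives. In FA against control 1 rose and 1 fell, where 12.4% of all genes were called, and between 0 and 2 rose and between 0 and 3 fell with a library left out. In MMA+FA against FA 0 rose and 2 fell (10.5% of all genes called), or 1 rose and 0 fell under median-ratio scaling. In MMA+FA against control 4 rose and 12 fell (39.3% of all genes called), a split that turned to 9 and 4 under median-ratio scaling.

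Relatives with glycine-rich tails or hnRNP-type recognition motifs, which include the X-linked Rbmx and the FET protein Taf15, moved in both directions. Of 19 tested, 2 rose and 1 fell in MMA against control (3.85% of all genes were called higher and 16.5% lower), or 5 and 1 once scaled by median ratios. The median member lay at -0.00015, against -0.07 over all genes. Taf15 fell to 75.0 TPM with MMA and 73.4 TPM with FA, against 97.1 TPM in control cells (log2 -0.37 and -0.40, adjusted p = 0.00551 and 0.00854). Rbmx rose by 0.20 with MMA (adjusted p = 0.0464), a call that was lost in 7 of the 12 fits with 1 library left out, where its highest adjusted p was 0.175, without MMA replicate 3, and without the filter on low values (0.0769). Hnrnpab, an hnRNP of the A/B type, stood at 342 TPM with MMA and 356 TPM with MMA+FA, against 305 TPM in control cells. Its difference of 0.22 in MMA+FA against control (adjusted p = 0.00762) held in all alternatives, while that of 0.16 with MMA (adjusted p = 0.0496) was lost in 9 of the fits with 1 library left out, up to an adjusted p of 0.165 without MMA replicate 3, and under 3 other settings, quantile normalization among them (0.0598). In FA against control 1 rose and 4 fell (12.4% of all genes called), or 1 and 2 under median-ratio scaling. In MMA+FA against FA 0 rose and 1 fell (10.5% of all genes called), or 2 and 1 under that scaling. With a library left out, between 0 and 2 rose and between 1 and 3 fell with MMA, and between 0 and 1 rose and between 1 and 5 fell with FA. HNRNPH1, named above as a splicing regulator of Rbm3, was not analysed here.

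The cold shock domain proteins are a separate family of nucleic acid binders, named after bacterial cold shock factors. Of 6 tested, only Ybx1, an abundant mRNA-binding protein of the cytoplasm, was called in MMA against control and in FA against control. Of all genes, 20.4% and 12.4% were called in these comparisons. Ybx1 averaged 483 TPM with MMA, 494 TPM with FA, 510 TPM with MMA+FA and 436 TPM in control cells. Its log2 differences from control were 0.15 (adjusted p = 0.0215), 0.18 (adjusted p = 0.0176) and 0.23 (adjusted p = 0.00103). The first was lost without MMA replicate 1 (adjusted p = 0.052), MMA replicate 3 (0.0766), control replicate 1 (0.0544) or control replicate 3 (0.0879), and under quantile normalization (0.0936). The second was lost without FA replicate 1 (0.0669) or control replicate 3 (0.0784), and in a fit of only those groups (0.0659). The third held with any library left out. Rbm3 and Ybx1 were thus both lowest in control cells, with a larger difference for Rbm3.

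Heat shock genes answer warming, the opposite of the stimulus Rbm3 is named for. Of 19 tested, 1 rose and 3 fell in MMA against control, or 2 and 0 under median-ratio scaling. In FA against control 1 rose and 4 fell (2 and 4 after scaling), and in MMA+FA against FA 3 rose and 1 fell (4 and 0). Of all genes, 20.4%, 12.4% and 10.5% were called in these comparisons. With a library left out, 1 rose and between 0 and 3 fell with MMA, between 0 and 1 rose and between 0 and 6 fell with FA, and between 0 and 3 rose and between 0 and 2 fell in MMA+FA against FA. The co-chaperone gene Dnajb4 rose to 70.9 TPM with MMA, against 59.6 TPM in control cells (log2 0.25, adjusted p = 0.0106). Hsf1, the main heat shock transcription factor, was at 40.7 TPM with MMA against 48.9 TPM in control cells (log2 -0.26, adjusted p = 0.0165), a call lost with median-ratio scaled values (adjusted p = 0.0845), under quantile normalization (0.0634) and without control replicate 1 (0.0656) or MMA replicate 3 (0.0598).

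**Figure D3:**
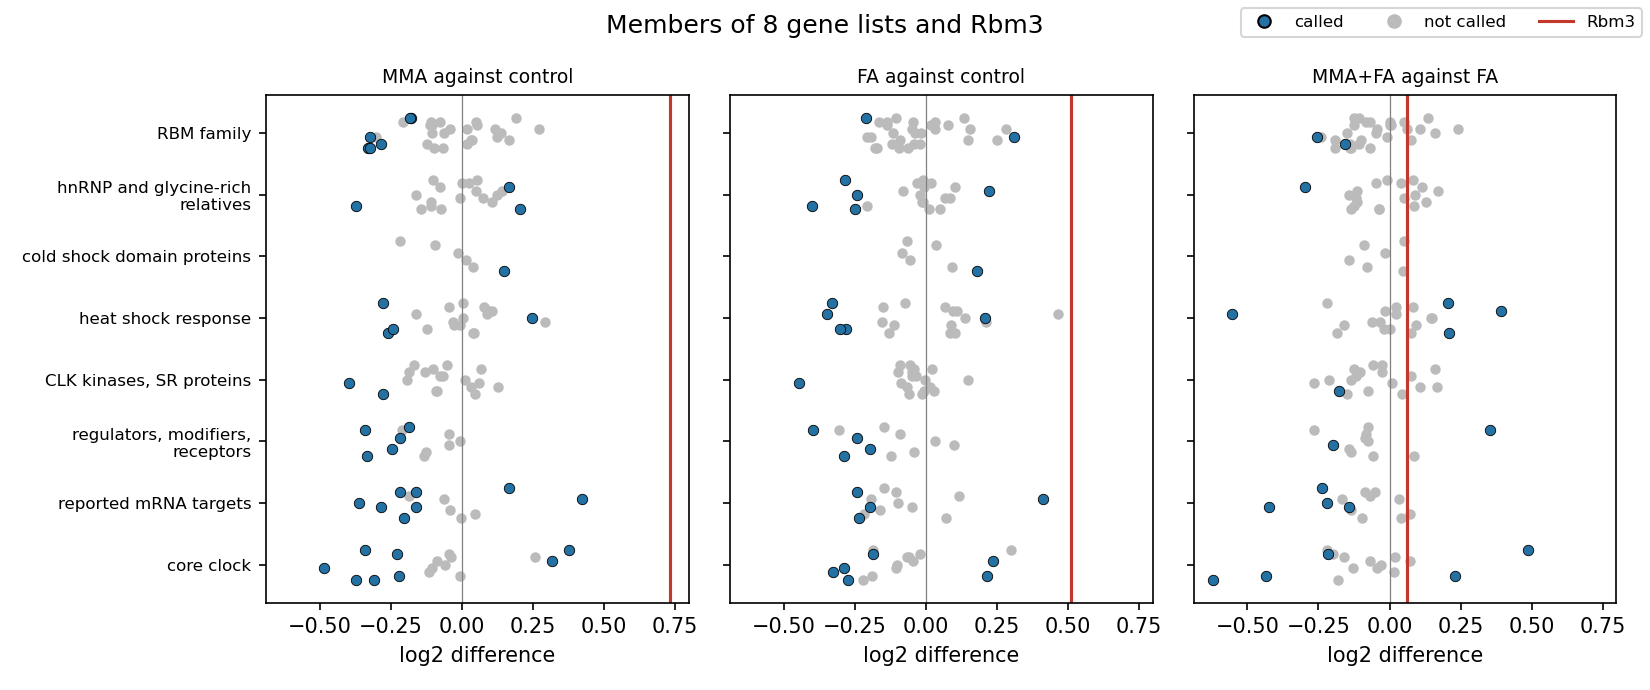
Differences in mean log2(TPM + 1) (horizontal axis) of the tested members of 8 gene lists (rows) in MMA against control, FA against control and MMA+FA against FA; blue points passed an adjusted p under 0.05, grey points did not, and the red line is Rbm3. In the first and second panel every list member lies left of Rbm3 (0.73 and 0.51), and in the last Rbm3 lies at 0.06, inside the range of the lists.

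Among genes reported to act on RBM3 or CIRBP, the CLK kinases and SR proteins regulate splicing. Of 18 tested, 0 rose and 2 fell in MMA against control, 0 and 1 in FA against control, and 0 and 1 in MMA+FA against FA, or 1 and 1, 0 and 1, and 2 and 0 with median-ratio scaled values. The share of all genes called was 20.4%, 12.4% and 10.5%. When a library was left out, between 1 and 4 fell with MMA. Clk4 fell to 14.95 TPM with MMA and 14.4 TPM with FA, against 19.9 TPM in control cells (log2 -0.40 and -0.45, adjusted p = 0.0089 and 0.0114). Of 11 tested regulators, modifying enzymes and receptors, 0 rose and 5 fell with MMA, and 0 rose and 4 fell with FA, each against control (2 and 1 fell under median-ratio scaling), where 16.5% and 8.7% of all genes were called lower. In MMA+FA against FA 1 rose and 1 fell, or 1 and 0 after scaling. Between 1 and 7 fell with MMA and between 0 and 6 with FA when a library was left out. Tnpo1, an importin that carries RNA-binding proteins of this kind into the nucleus, fell to 96.5 TPM with MMA, against 114.6 TPM in control cells (log2 -0.25, adjusted p = 0.00507). Ntrk2, the receptor TrkB reported upstream of Rbm3 in mouse brain, and the warmth-sensitive channel gene Trpv4 averaged 0.0058 and 0.017 TPM and were not tested.

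Of 13 tested genes reported as mRNA targets or partners of RBM3 or CIRBP, 2 rose and 6 fell in MMA against control, or 2 and 1 under median-ratio scaling, beside 3.85% of all genes called higher and 16.5% lower. Ptgs2, the cyclooxygenase gene whose mRNA RBM3 has been reported to stabilize in human cells, rose to 71.9 TPM with MMA and 71.5 TPM with FA, against 53.6 TPM in control cells. Its log2 differences of 0.42 and 0.41 (adjusted p = 0.0041 and 0.00954) held in all fits, and in MMA+FA cells it stood at 73.0 TPM. The Ptgs2 libraries had 72.3, 75.2 and 68.1 TPM with MMA, 68.4, 78.7 and 67.5 with FA, 72.6, 73.7 and 72.7 with MMA+FA, and 47.4, 55.9 and 57.4 in control cells. As for Rbm3, all treated libraries lay above control, a pattern shown by 2.93% of the genes tested. A link between Ptgs2 and Rbm3 was not tested. Rtn3 fell to 263 TPM with MMA, against 303 TPM in control cells (log2 -0.21, adjusted p = 0.0213), a call that median-ratio scaling removed (-0.13, adjusted p = 0.154), as did leaving out MMA replicate 3 (0.0905) or control replicate 3 (0.0836). Map1a, which encodes a microtubule-associated protein, fell to 18.6 TPM with MMA, against 24.2 TPM in control cells (log2 -0.36, adjusted p = 0.00313), and that call held in all alternatives. In FA against control 1 rose and 3 fell (1 and 1 after scaling, with 12.4% of all genes called), and in MMA+FA against FA 0 rose and 4 fell (0 and 1, with 10.5% called). With a library left out, between 1 and 2 rose and between 2 and 6 fell with MMA, and 1 rose and between 0 and 6 fell with FA.

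Clock genes were included because RBM3 and CIRBP have been linked to the amplitude of circadian gene expression in mouse cells. Of 16 tested, 2 rose and 6 fell in MMA against control, 2 and 4 in FA against control and 2 and 3 in MMA+FA against FA, or 3 and 5, 3 and 2, and 2 and 2 with median-ratio scaled values. Over all genes, 20.4%, 12.4% and 10.5% were called. When a library was left out, between 1 and 2 rose and between 3 and 6 fell with MMA, and between 0 and 3 rose and between 0 and 5 fell with FA. Per2, a repressor of the clock, fell to 7.83 TPM with MMA, against 11.3 TPM in control cells (log2 -0.48, adjusted p = 0.00255). Dbp, a clock output factor, fell to 31.3 TPM with MMA+FA, against 48.8 TPM with FA alone (log2 -0.62, adjusted p = 0.00207), in a comparison where Rbm3 lay at 0.06.

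Across the 12 libraries, the profile of Rbm3 was compared with that of the other 11220 tested protein-coding genes with a symbol by Pearson's r of log2(TPM + 1). The groups dominate this measure, so r describes likeness only. The most alike were the kinase gene Pim1 (r = 0.97), the thymidine kinase gene Tk1 (0.97), Cuedc2 (0.97), Fam114a1 (0.96) and Frmd4b (0.95). Pim1 averaged 16.0 TPM with MMA, 14.0 with FA, 14.97 with MMA+FA and 9.37 in control cells, the same order of groups as Rbm3. Tk1 averaged 49.5, 42.5 and 44.1 TPM in the MMA, FA and MMA+FA groups and 28.0 in control cells, again in that order. In MMA+FA against FA their log2 differences were 0.09 for Pim1 and 0.04 for Tk1, and 0.06 for Rbm3. Both genes were picked by r over these same libraries, so their likeness to Rbm3 is no separate result. The most opposite were Lap3, a leucine aminopeptidase gene (-0.97), the catalase gene Cat (-0.96) and Per2 (-0.96). Cat averaged 25.9 TPM with MMA, 27.8 with FA, 26.9 with MMA+FA and 33.3 in control cells. Among the 49 tested relatives in the RBM family and the hnRNP list, the highest r was 0.81, for Rbm12, and the lowest -0.88, for Rbm33. Of the 5 most alike genes, 2 had a promoter with CCAAT, 2 with TGACG and 3 with GGGCGG. Over all promoters the shares were 37.5%, 21.2% and 33.1%, counted per promoter rather than per gene.

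**Figure D4:**
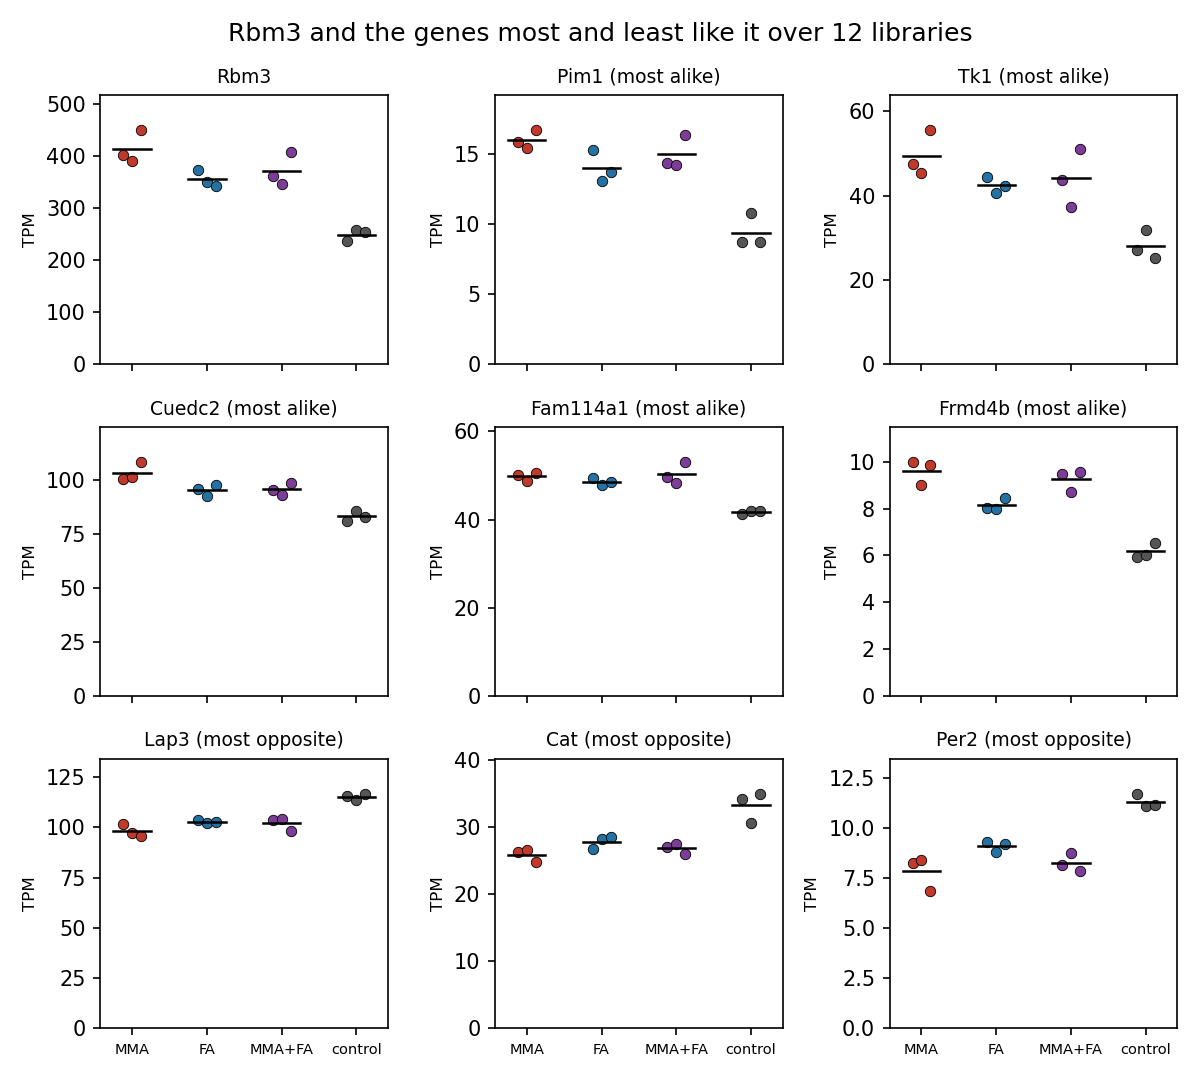
TPM (vertical axes, each from 0) in the MMA, FA, MMA+FA and control libraries for Rbm3, the 5 genes most like it and the 3 most opposite to it by Pearson's r over 12 libraries; points are libraries and lines are means of 3. Rbm3, Pim1 and Tk1 are highest with MMA and lowest in control cells, and Cat and Per2 are highest in control cells.

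On the X chromosome, no tested neighbour of Rbm3 was called higher in MMA against control. Only 3.85% of all genes were called higher there and 16.5% lower, so the few neighbours say little. Of the 5 protein-coding genes on each side in the GRCr8 order, 6 were tested, and in MMA against control their log2 differences reached from -0.39 for Tbc1d25, the next gene on one side, to 0.09 for Suv39h1. Tbc1d25 fell to 5.17 TPM with MMA, against 7.08 TPM in control cells (adjusted p = 0.0151), a call lost under quantile normalization (0.0725) and without MMA replicate 2 (0.0567), control replicate 1 (0.0535) or control replicate 2 (0.0543). Wdr13, the next gene on the other side, averaged 17.2 TPM with MMA and 18.1 TPM in control cells (log2 -0.07, adjusted p = 0.457), against 0.73 for Rbm3. This set was added after the data were seen.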

How the data were processed

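Per the labels' protocols, TRIzol was used for RNA and a stranded Illumina mRNA kit for the libraries. Reads were processed with fastp and HISAT2 and the rat build mRatBN7.2, per the submitters' processing notes, and RSEM is named in the title of the table. Their versions and settings are not given here. The authors deposited TPM for each gene, and all 12 sample columns were used.

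The 12263 genes averaging 1 TPM or more were fitted as log2(TPM + 1) in limma 3.58.1 (R 4.3.3) with 1 mean per group, a mean-variance trend and 8 residual degrees of freedom (prior 4.32), with calls at an adjusted p (Benjamini-Hochberg, over all of them) under 0.05. Fold changes are on that scale, which understates changes of low genes. The code was tested on simulated data. Members and lists were chosen with earlier results of these data known. Cirbp was not analysed here, nor was its planned ratio to Rbm3. Rbm3 has 1 locus, so summing loci was not needed. The rule allowed naming, per list and comparison, up to 4 called genes in each direction with the smallest p, and members the background names, plus the 5 genes most and 3 least like Rbm3. From these, the few printed were picked after their values were seen, mostly calls that held with any library left out. The promoter search and neighbours were added later. Plots used Python 3.11.15 and matplotlib 3.10.9.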

Additional observations from a re-analysis of the deposited data

Results flagged for a closer look

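Rpa2, a subunit of the single-strand DNA-binding replication protein A whose mRNA CIRBP has been reported to bind in human cells, responded to MMA differently with and without FA. It averaged 42.8 TPM with MMA and 38.0 TPM in control cells, but 28.9 TPM with MMA+FA and 34.2 TPM with FA alone. The interaction was -0.40 on the log2 scale (SE 0.07, adjusted p = 0.0146 in limma). Rpa2 was the only call in this contrast among the tested members of all gene lists, where 2.41% of all genes were called. Its interaction was not examined under the alternative settings. The call in MMA against control (0.17, adjusted p = 0.0319) was lost without MMA replicate 1 or 3 or any 1 control replicate, and that in MMA+FA against FA (-0.24, adjusted p = 0.0162) under median-ratio scaling (0.0531), under quantile normalization (0.0561), in a fit of only those groups (0.111) and without MMA+FA replicate 2 (0.0562). Rbm3 lay at 0.73 and 0.06 in the same 2 comparisons.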

How the results depend on the processing

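Of 173 alternative values of Rbm3, 171 kept their direction and their side of the threshold or stayed within 1 SD of the replicates. Many of these settings could not move a log2 difference. These were the filters, the trend, the block, fits of only the groups compared, and leaving out a library of another group. The count is therefore no measure of how robust the values of Rbm3 are. Rbm3 in MMA+FA against control was 0.70 under median-ratio scaling, and in MMA+FA against FA it changed sign without MMA+FA replicate 3 (-0.0048). With any 1 library left out, the log2 difference of Rbm3 lay between 0.67 and 0.77 in MMA against control, 0.47 and 0.54 in FA against control, 0.51 and 0.62 in MMA+FA against control, -0.22 and -0.09 in MMA+FA against MMA, and -0.0048 and 0.11 in MMA+FA against FA. The mean effects lay between 0.36 and 0.42 for MMA and 0.14 and 0.21 for FA, and the interaction between -0.73 and -0.61. The number of genes called moved more. In FA against control it was 604 in a fit of only the groups compared and 928 without a filter (1517 as reported). In MMA+FA against FA it was 23, 699, 723 and 507 in a fit of only the groups compared, without a filter, under median-ratio scaling and under quantile normalization (1288 as reported). The interaction had 181 without a filter (295 as reported), and the mean effect of MMA 2078 under quantile normalization (3695 as reported). With any 1 library left out, the counts lay between 1177 (without MMA replicate 3) and 3035 in MMA against control, 214 (without control replicate 3) and 2571 (without FA replicate 2) in FA against control, 3602 and 5231 in MMA+FA against control, 869 and 1954 in MMA+FA against MMA, 352 (without FA replicate 1) and 2011 (without FA replicate 2) in MMA+FA against FA, 91 and 496 in the interaction, 2818 and 3902 in the mean effect of MMA and 2023 and 3757 in that of FA. The cause was not tested. The replicate numbers did not pair the samples: of 18 same-numbered pairs, 1 had a correlation of deviations over 0.1 (range -0.12 to 0.11). A replicate block cannot move an estimate in this balanced design, only its p. With it, limma's adjusted p for Rbm3 was 0.552 in MMA+FA against FA (0.06) and 0.0196 for the mean effect of FA (0.18). Depth is unknown, so counting error cannot be given.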
